A study of Mus musculus with 2 samples.

Results

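Interferon-stimulated genes are the genes that cells switch on when interferon reaches them, and 35 of them were followed here by symbol among the 27998 genes counted in mouse lung. They were taken as a list that was chosen with earlier results of these data known, and all 35 were found in the gene table. Each was described by its summed unique molecular identifiers (UMIs) per 1000000 of the same cells (CPM), by class of cells and by library. The 2 libraries held single cells of lungs at postnatal day 10, separated by FACS into the immune, epithelial, mesenchymal and endothelial fractions and counted at the 3′ end of transcripts. The mutant library carries the label Nkx2-1;Aqp5 and the control library the label Nkx2-1, and the labels give neither the allele, nor the promoter of a recombinase, nor the number of animals behind each library. The product of Nkx2-1 is a DNA-binding factor that the lung epithelium needs for its identity, and Aqp5 encodes an aquaporin made by the thin AT1 cells through which gas is exchanged. Surfactant is made by their neighbours, the AT2 cells.

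Interferons are secreted proteins. Type I and type III interferons bind receptors that act through JAK kinases on STAT proteins, which join IRF9 and bind a DNA element called the ISRE. The response to type II interferon uses another element, GAS. The induced genes block viral entry and replication, sense foreign nucleic acid, feed the presentation of antigens and damp the response itself. Barrier epithelia and blood vessels of the lung are also known to keep some of these genes on without infection.

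The mutant library held 4551 barcodes with a median of 8305 UMIs, and the control library 4461 barcodes with a median of 5943 UMIs. After filtering, 4198 mutant and 3952 control cells were used, and 27 barcode sequences occurred in both libraries. Each genotype had 1 library, so no difference below has a replicate check or a test, and every value describes these libraries. Ranges in parentheses are exact 95% intervals and cover counting error only. A gene was called measured in a class when it had at least 20 UMIs over both libraries, and 2-fold lower or higher when the ratio of its CPM, mutant over control, passed that size.

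The AT1 compartment was defined as the epithelial cells outside the AT2-like, club-like, ciliated-like and other named airway clusters, and held 2253 mutant and 564 control cells. Median depth there was 12335 UMIs in mutant and 6499.5 UMIs in control cells. Nkx2-1 itself had 13.5 CPM in the mutant compartment and 480 CPM in the control compartment, although the part of the gene that was deleted is not given and a 3′ tag does not check it. Ager, the receptor gene that marks AT1 cells, had 1307 CPM in mutant and 21696 CPM in control cells. Of the control cells, 518 lay in 1 AT1-like cluster (number 2) that held 4 mutant cells, and most mutant cells lay in clusters 1, 4, 5, 6 and 7, which held no control cell. Cluster 1 was led by the gastric-type genes Tff1 and Tff2, cluster 4 by Sema3c and Sprr1a, cluster 5 by cell cycle genes such as Top2a and cluster 6 by Kcne2 and Akap5. Genotype and cluster therefore cannot be told apart for most of the compartment. An AT1-like cluster (number 9) of 169 mutant and 37 control cells was the 1 cluster with at least 20 cells of each library, and is given beside the compartment below.

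Promoter windows are shown of 5 members that carry the letters of an ISRE and were at least 2-fold lower or higher in the compartment. They are examples, and other such members, among them Igtp, are not shown. The windows are RefSeq sequence of GRCm38.p6, from 250 bases before to 50 bases after the annotated start, read 5′ to 3′ along the gene. Capitals mark matches on either strand to an ISRE core, searched as GAAA, any 2 bases and GAAA. The Ifit1 window is chr19:34640639-34640938 (plus strand), Ifit3 is chr19:34583279-34583578 (plus), Isg15 is chr4:156200769-156201068 (minus), Bst2 is chr8:71537423-71537722 (minus) and Ifitm3 is chr7:141010695-141010994 (minus).
Ifit1: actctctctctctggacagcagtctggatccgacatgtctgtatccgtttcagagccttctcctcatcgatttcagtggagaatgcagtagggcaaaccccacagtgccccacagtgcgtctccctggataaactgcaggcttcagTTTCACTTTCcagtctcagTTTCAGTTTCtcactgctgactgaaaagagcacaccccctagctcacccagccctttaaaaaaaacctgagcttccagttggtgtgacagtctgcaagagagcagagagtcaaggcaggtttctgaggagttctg
Ifit3: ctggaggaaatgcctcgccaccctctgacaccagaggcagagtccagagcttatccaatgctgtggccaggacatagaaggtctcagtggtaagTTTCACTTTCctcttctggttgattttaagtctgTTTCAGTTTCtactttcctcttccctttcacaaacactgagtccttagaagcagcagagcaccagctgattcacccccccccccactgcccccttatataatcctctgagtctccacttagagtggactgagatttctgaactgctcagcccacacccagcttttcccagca
Isg15: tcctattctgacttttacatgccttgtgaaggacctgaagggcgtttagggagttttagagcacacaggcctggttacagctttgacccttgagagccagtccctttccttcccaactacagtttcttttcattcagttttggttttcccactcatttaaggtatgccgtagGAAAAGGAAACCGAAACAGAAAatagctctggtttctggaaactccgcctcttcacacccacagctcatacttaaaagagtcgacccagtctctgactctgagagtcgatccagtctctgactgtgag
Bst2: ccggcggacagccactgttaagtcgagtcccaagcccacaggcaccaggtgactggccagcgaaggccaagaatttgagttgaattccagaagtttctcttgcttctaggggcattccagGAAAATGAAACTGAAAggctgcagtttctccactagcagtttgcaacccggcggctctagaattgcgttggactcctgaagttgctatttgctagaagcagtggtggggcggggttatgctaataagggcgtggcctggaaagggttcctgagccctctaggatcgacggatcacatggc
Ifitm3: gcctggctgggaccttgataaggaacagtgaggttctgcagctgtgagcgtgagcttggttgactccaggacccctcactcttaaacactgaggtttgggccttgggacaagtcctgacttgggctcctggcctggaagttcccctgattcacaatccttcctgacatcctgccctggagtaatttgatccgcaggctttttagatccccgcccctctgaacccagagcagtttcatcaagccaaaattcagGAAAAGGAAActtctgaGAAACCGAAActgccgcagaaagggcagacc

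The core occurred at 104 and 85 bases before the start of Ifit1, at 156 and 122 bases before that of Ifit3, at 78, 72 and 66 bases before that of Isg15 and at 130 and 124 bases before that of Bst2, while in Ifitm3 it began 2 and 19 bases after the first base. The Isg15 and Bst2 matches overlap one another and form 1 run each. RefSeq windows were found for 30 of the 35 members, and 15 of these members (50%) held the core, against 3.99% of the 27025 genes with a window. The letters of a GAS element, TTCNNNGAA, which reads the same on both strands, occurred in 11 of the 30 members (36.7%), against 9.55% of all genes with a window. Windows with both motifs numbered 5, and 2 pairs of matches overlapped. Such a match is a description of the letters and not of a bound site. Among members measured in the compartment, the 12 with an ISRE core had a median log2 ratio of -0.57 and ranged from -6.35 (Ifit3) to 2.88 (Ifitm3), and the 15 without had a median of -0.81.

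Most members were lower in the mutant AT1 compartment. Of the 35 members 31 were measured there, 25 of them lower and 6 higher in the mutant library, with a median log2 ratio of -0.93 against 0.15 for all 12850 measured genes. At least 2-fold lower were 14 members, where 12.5% of all measured genes were so, and at least 2-fold higher were 4, where 21.7% of all measured genes were so. Of those 4, the intervals of Ifitm3 and Trim25 exclude 1 and those of Oas1a and Irf8 do not. Because the list was chosen with earlier results of these data known, these counts beside all genes are a description and not an independent check. Summed over the 35 genes the level was 652 CPM (643 to 661) in the mutant compartment and 1248 CPM (1213 to 1284) in the control compartment. Ifi27 alone made up 88.3 CPM of the mutant and 454 CPM of the control sum. By role, the summed effectors had 60.1 CPM in mutant and 213 CPM in control cells, the feedback and other induced genes 141 CPM in mutant and 648 CPM in control cells, and the membrane factors 304 CPM in mutant and 204 CPM in control cells. In AT1-like clusters alone (173 mutant and 555 control cells, mostly clusters 9 and 2), 26 members were measured. Of these, 7 were at least 2-fold lower, where 7.9% of all genes measured there were so, and 0 at least 2-fold higher, where 6.09% were so. The log2 ratios there were -2.82 for Ifit3, -2.53 for Ifit1, -0.70 for Isg15, -0.95 for Ifi27 and 0.35 for Ifitm3.

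**Figure D1:**
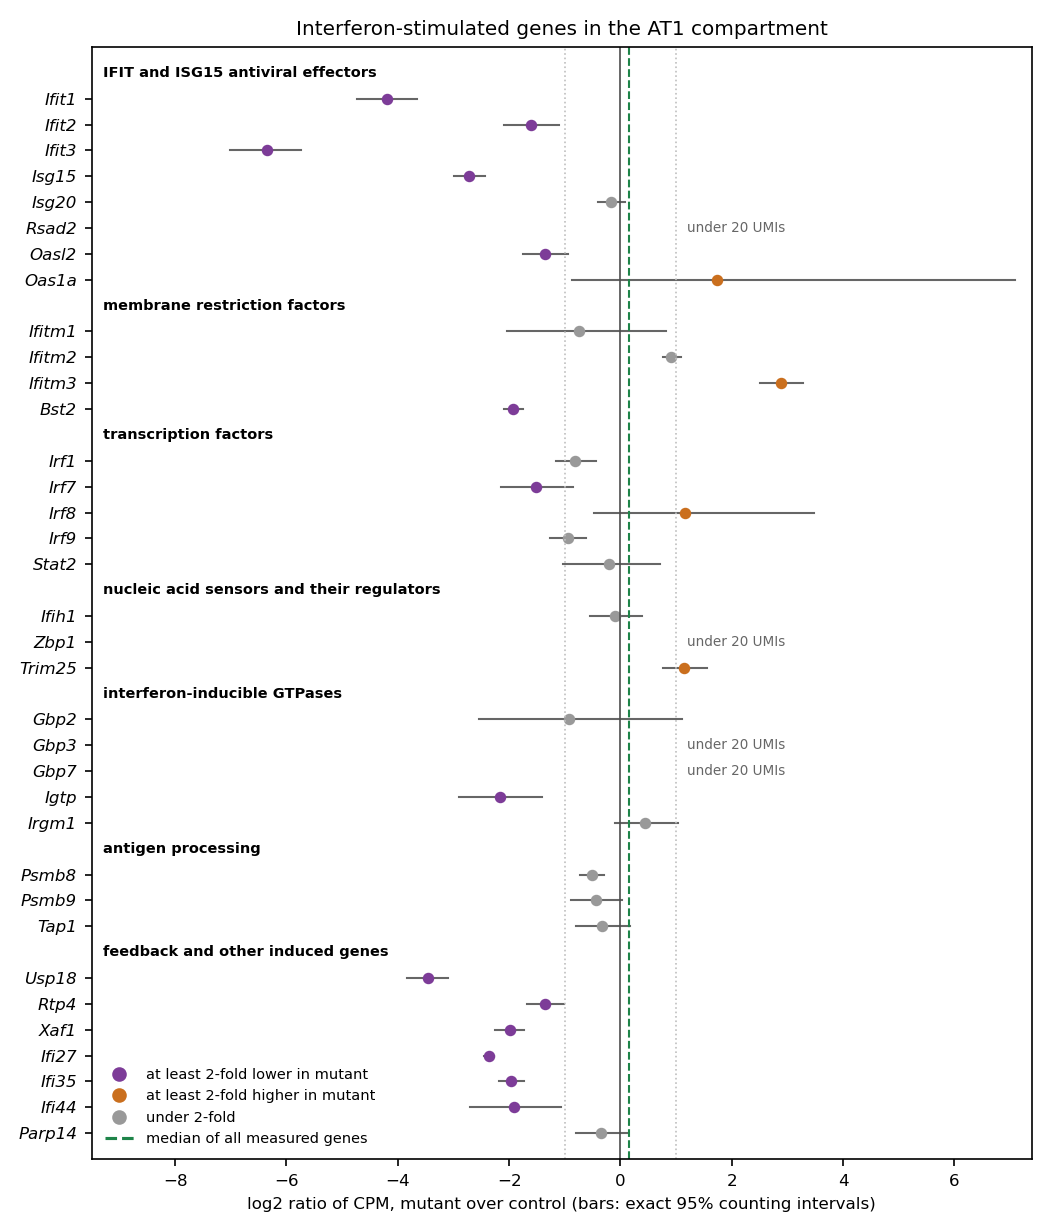
Log2 ratio of CPM, mutant over control, of each gene in the AT1 compartment, grouped by role; points are ratios, bars exact 95% counting intervals, dotted lines 2-fold and the dashed line the median of all measured genes (0.15). Ifit3 (-6.35), Ifit1 (-4.19) and Usp18 (-3.46) lie farthest to the left and Ifitm3 (2.88) farthest to the right.

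Of the 8 antiviral effector genes, whose products bind, cut or modify RNA and proteins, 7 were measured and 5 were at least 2-fold lower in the mutant compartment. Of all measured genes 12.5% were so. Ifit3, an RNA-binding antiviral effector gene on chromosome 19, had 0.766 CPM (0.491 to 1.14, 24 UMIs) in the mutant compartment and 62.5 CPM (54.8 to 70.9, 242 UMIs) in the control compartment. It was thus 81.6-fold lower (53.5 to 130), the largest difference among the 35. Ifit1, which binds viral RNA with unmethylated caps, had 1.40 CPM in mutant and 25.6 CPM in control cells and was 18.2-fold lower (12.6 to 26.6). Isg15, which encodes a ubiquitin-like modifier, had 7.66 CPM (6.72 to 8.69) in mutant and 50.3 CPM (43.5 to 57.9) in control cells and was 6.57-fold lower. None of these intervals overlapped between the libraries. The related Ifit2 (3.05-fold) and Oasl2, an oligoadenylate synthetase-like gene (2.56-fold), were also lower, although the log2 ratio of Ifit2 was 0.060 over all epithelial cells, 0.072 in AT1-like clusters alone and 1.05 in cluster 9. Isg20, an exonuclease gene and the member of this group with the most UMIs, had 38.2 CPM in mutant and 42.9 CPM in control cells, a ratio of 0.892 (0.757 to 1.06). Oas1a stood higher at 27 UMIs in mutant and 1 UMI in control cells, a ratio of 3.34 (0.55 to 137) that counting error leaves without a direction. Rsad2, the viperin gene, had 9 mutant and 6 control UMIs and was not measured. Ifit3b, a near-identical neighbour of Ifit3, had 0.287 CPM in mutant and 16.0046 CPM in control cells. How reads shared by such copies were counted is not given, and this may affect both levels.

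Genes that damp or follow the interferon response were all lower, 7 of 7. Usp18, whose product strips ISG15 from proteins and restrains the type I receptor, had 3.61 CPM (2.97 to 4.34) in mutant and 39.8 CPM (33.7 to 46.6) in control cells, 11.0-fold lower (8.59 to 14.2). Ifi27, a small mitochondrial protein gene with the most UMIs of this group, had 88.3 CPM (85.1 to 91.7) in the mutant compartment and 454 CPM (433 to 476) in the control compartment, 5.14-fold lower. The apoptosis-linked Xaf1 was 3.98-fold, Ifi35 3.88-fold, Ifi44 3.76-fold and the Golgi protein gene Rtp4 2.54-fold lower, and in cluster 9 the log2 ratios of Xaf1 (0.46) and Ifi35 (0.65) were positive. Parp14, an ADP-ribosyltransferase gene, had a ratio of 0.782 (0.572 to 1.09). In this group 6 of 7 members were at least 2-fold lower, where 12.5% of all measured genes were so, with a median log2 ratio of -1.96.

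The 4 membrane restriction factors, which block viral entry or hold virions at the cell surface, went both ways. Bst2, the tetherin gene, had 26.7 CPM (24.9 to 28.5) in mutant and 101 CPM (91.4 to 112) in control cells and was 3.80-fold lower (3.36 to 4.29). Ifitm3 had 114 CPM (110 to 118) in the mutant compartment and 15.5 CPM (11.8 to 19.9) in the control compartment, 7.36-fold higher (5.70 to 9.66). Its relative Ifitm2 had 163 CPM in mutant and 86.2 CPM in control cells, a ratio of 1.89 (1.69 to 2.11). Ifitm1, which lies near both on chromosome 7, had 29 UMIs in mutant and 6 in control cells and a ratio of 0.598 (0.244 to 1.76). Members of this family are alike in sequence. How reads that fit several of them were counted is not given, and this may affect their levels.

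Of the 5 transcription factor genes of the pathway 4 were lower and 1 higher. Only Irf7 was at least 2-fold lower, where 12.5% of all measured genes were so. Irf7, which drives the induction of interferon genes, had 2.62 CPM in mutant and 7.49 CPM in control cells, 2.86-fold lower (1.81 to 4.42). Irf9, the DNA-binding partner of the STATs, had 13.1 CPM in mutant and 25.3 CPM in control cells (ratio 0.520, 0.416 to 0.655), and Irf1, a target of type II interferon, had 11.9 CPM in mutant and 20.9 CPM in control cells (ratio 0.571). Stat2 had 3.13 CPM in mutant and 3.61 CPM in control cells (ratio 0.865, 0.492 to 1.64). Irf8, a factor of myeloid cells, had 54 UMIs in mutant and 3 in control cells and a ratio of 2.23 (0.722 to 11.1), which includes equal levels.

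Measured were 2 genes of sensors and their regulators, 3 GTPase genes and 3 antigen processing genes. Of these, 1 was at least 2-fold higher and 1 at least 2-fold lower. Of all measured genes 21.7% were at least 2-fold higher and 12.5% at least 2-fold lower. Trim25, a ubiquitin ligase gene that serves the RIG-I sensor, had 33.1 CPM in mutant and 14.97 CPM in control cells and was 2.21-fold higher (1.70 to 2.93). Ifih1, the gene of the RNA sensor MDA5, had 11.1 CPM in mutant and 11.9 CPM in control cells. Igtp, an immunity-related GTPase gene, had 1.44 CPM in mutant and 6.45 CPM in control cells and was 4.49-fold lower (2.64 to 7.49), while its relative Irgm1 had a ratio of 1.36 (0.935 to 2.05) and Gbp2 one of 0.525 (0.171 to 2.15). The immunoproteasome gene Psmb8 had 39.1 CPM in mutant and 55.8 CPM in control cells (ratio 0.701, 0.606 to 0.814), and Psmb9 and the peptide transporter gene Tap1 had ratios of 0.734 and 0.798. Gbp3 (0 and 2 UMIs), Gbp7 (8 and 8 UMIs) and Zbp1 (11 and 2 UMIs, mutant and then control in each case) were too thinly counted to be measured.

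Markers of other lineages were low in the compartment. The 7 immune markers summed to 28.2 CPM in mutant and 26.1 CPM in control cells, the 7 endothelial markers to 16.4 CPM and 32.3 CPM, and the 8 mesenchymal markers to 44.9 CPM and 80.0 CPM, with no marker at 0. Their part in the ratios was not tested. Free RNA, estimated from surfactant and airway genes in the other lineages, was 2.59% in the mutant and 2.62% in the control library. After its subtraction the compartment's median log2 ratio was -0.96.

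Single cells showed how these UMIs were spread. After thinning each cell to 1500 UMIs, an Ifit3 UMI was found in 0.222% (0.0721 to 0.517) of mutant and 7.27% (5.27 to 9.73) of control compartment cells, against 0.755% and 26.6% before thinning. In endothelial cells, where Ifit3 was low, the thinned shares were 0% in the mutant and 0.170% in the control library. An Ifi27 UMI was found in 11.6% of mutant and 45.04% of control compartment cells (53.4% and 83.2% before thinning), and a Bst2 UMI in 3.77% and 13.5% (25.3% and 45.7%). Ifitm3 had the opposite order, with 14.2% (12.8 to 15.7) of mutant and 1.24% (0.5004 to 2.54) of control cells, and 50.6% and 9.40% before thinning. So the shares of cells had the same order as the summed levels for each of these genes.

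Single control cells differed widely in their Isg15 and IFIT counts. The highest single control cell had 42 UMIs of Isg15, and the highest ones of Ifit3 and of Ifit1 had 22 UMIs each, while Bst2, which had more UMIs in all, had at most 5 in a control cell. The order was reversed in the mutant compartment, where 1 cell had 29 UMIs of Bst2. The highest mutant cells had 14 UMIs of Isg15, 6 of Ifit1 and 4 of Ifit3. The 7 effector genes other than Isg20, with Rsad2 among them, were also summed per cell. Cells with at least 10 UMIs over these 7 genes numbered 3 of 2253 (0.133%, 0.0275 to 0.389) in the mutant compartment and 3 of 564 (0.532%, 0.110 to 1.55) in the control compartment. They held 5.54% of these UMIs in the mutant and 18.7% in the control compartment. The limit was applied without thinning, and those cells had a median depth of 21127 UMIs in the mutant and 10135 UMIs in the control library. Without them the 7 genes had 20.7 CPM in mutant and 138 CPM in control cells, against 21.9 CPM and 170 CPM with them. Leaving out the highest cell of each gene in each library gave log2 ratios of -6.48 for Ifit3, -4.03 for Ifit1 and -2.45 for Isg15.

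The mutant clusters of the compartment were not alike. Ifit3 had at most 0.420 CPM in clusters 1, 4, 5, 6 and 7, and 9.23 CPM (5.04 to 15.5) in cluster 9, whose 169 cells held 14 of the 24 mutant Ifit3 UMIs. Isg15 had between 2.51 and 5.74 CPM in clusters 1, 4, 5 and 7, and 17.7 CPM in cluster 6 and 32.3 CPM in cluster 9. Ifi27 likewise had 171 CPM (159 to 184) in cluster 6 and 234 CPM (210 to 260) in cluster 9, and between 58.7 and 78.0 CPM in the other large mutant clusters. Bst2 followed with 58.2 CPM in cluster 6 and 58.7 CPM in cluster 9, against 11.9 to 29.4 CPM in clusters 1, 4, 5 and 7. Ifitm3 ran the other way, with 195 CPM in cluster 7, 181 CPM in cluster 4 and 17.8 CPM (11.7 to 25.9) in cluster 9.

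**Figure D2:**
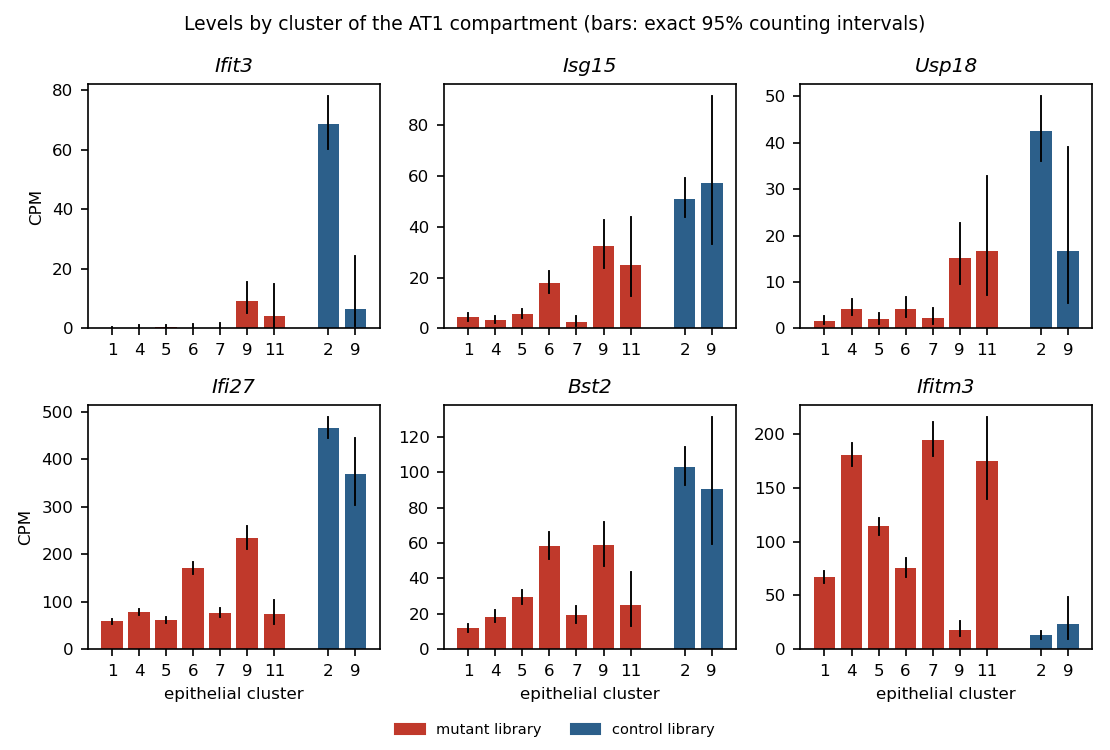
Levels of 6 genes (CPM, linear axes from 0) in each cluster of the AT1 compartment with at least 20 cells of a library, mutant clusters in red on the left and control clusters in blue on the right; lines are exact 95% counting intervals. In the mutant library Ifi27 and Bst2 stand highest in clusters 6 and 9 and Ifitm3 lowest in cluster 9, and in the control library Ifit3 stands at 68.7 CPM in cluster 2 and 6.70 CPM in cluster 9.

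Within cluster 9 the libraries were closer. Ifi27 had 234 CPM in mutant and 368 CPM (303 to 444) in control cells, a ratio of 0.635 (0.512 to 0.794), and Irf1 had 12.5 CPM and 33.5 CPM, a ratio of 0.374 (0.165 to 0.9004). Isg15 had 32.3 CPM in mutant and 56.9 CPM in control cells (ratio 0.567, 0.321 to 1.05) and Bst2 58.7 CPM and 90.4 CPM (ratio 0.649, 0.418 to 1.04). Ifit3 had 14 UMIs in mutant and 2 UMIs in control cells of this cluster, at 9.23 CPM and 6.70 CPM (ratio 1.38, 0.316 to 12.5), and Usp18 had 15.2 CPM and 16.7 CPM. Ifitm3 had 17.8 CPM in mutant and 23.4 CPM in control cells (ratio 0.759, 0.323 to 2.06). Of the 17 members measured there 2 were at least 2-fold lower, where 3.36% of all genes measured in the cluster were so, and 2 at least 2-fold higher, where 16.8% were so. The median log2 ratio was -0.14, against 0.30 for all genes measured in the cluster. The signs of Ifit3 and Ifitm3 were thus opposite to those of the compartment, as were those of Ifit2 (ratio 2.07, 0.505 to 18.2), Xaf1 (1.38, 0.537 to 4.51) and Ifi35 (1.57, 0.716 to 4.10), and all 5 intervals include 1. Ifit3 had under 20 UMIs in this cluster and was not among the 17 measured members.

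In the control lung the compartment held the highest level of several members. Ifit3 had 62.5 CPM there and at most 3.78 CPM (1.52 to 7.78) in any other control class. Ifi27 had 454 CPM in the control compartment and next 161 CPM (151 to 170) in mesenchymal cells. Usp18 had 39.8 CPM in the control compartment and next 23.0 CPM (16.1 to 31.8) in airway cells. In the mutant library Ifi27 was highest in mesenchymal cells at 146 CPM (136 to 156) and had 88.3 CPM in the compartment, and the order of the classes for Ifit3 was not set by its few UMIs.

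Several other members belonged to vessels, pericytes and immune cells in both libraries. Ifitm3 had 3705 CPM in mutant and 4382 CPM in control monocyte-like cells, its highest level, and 2961 CPM and 2361 CPM in venous endothelial-like cells. Ifitm1 had 863 CPM in mutant and 740 CPM in control pericyte-like cells and at most 446 CPM in any other named type of either library. Bst2 had 194 CPM in mutant and 351 CPM in control Plvap capillary endothelial-like cells. Irf8 was highest in interstitial macrophage-like cells, at 1102 CPM in 41 mutant and 411 CPM in 20 control cells, and Psmb8 had 510 CPM and 446 CPM there. Zbp1 was highest in monocyte-like and T-like cells. Unlike these members, Rsad2 was highest in ciliated-like airway cells, at 19.8 CPM in mutant and 14.8 CPM in control cells, and the mutant value rests on few UMIs.

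**Figure D3:**
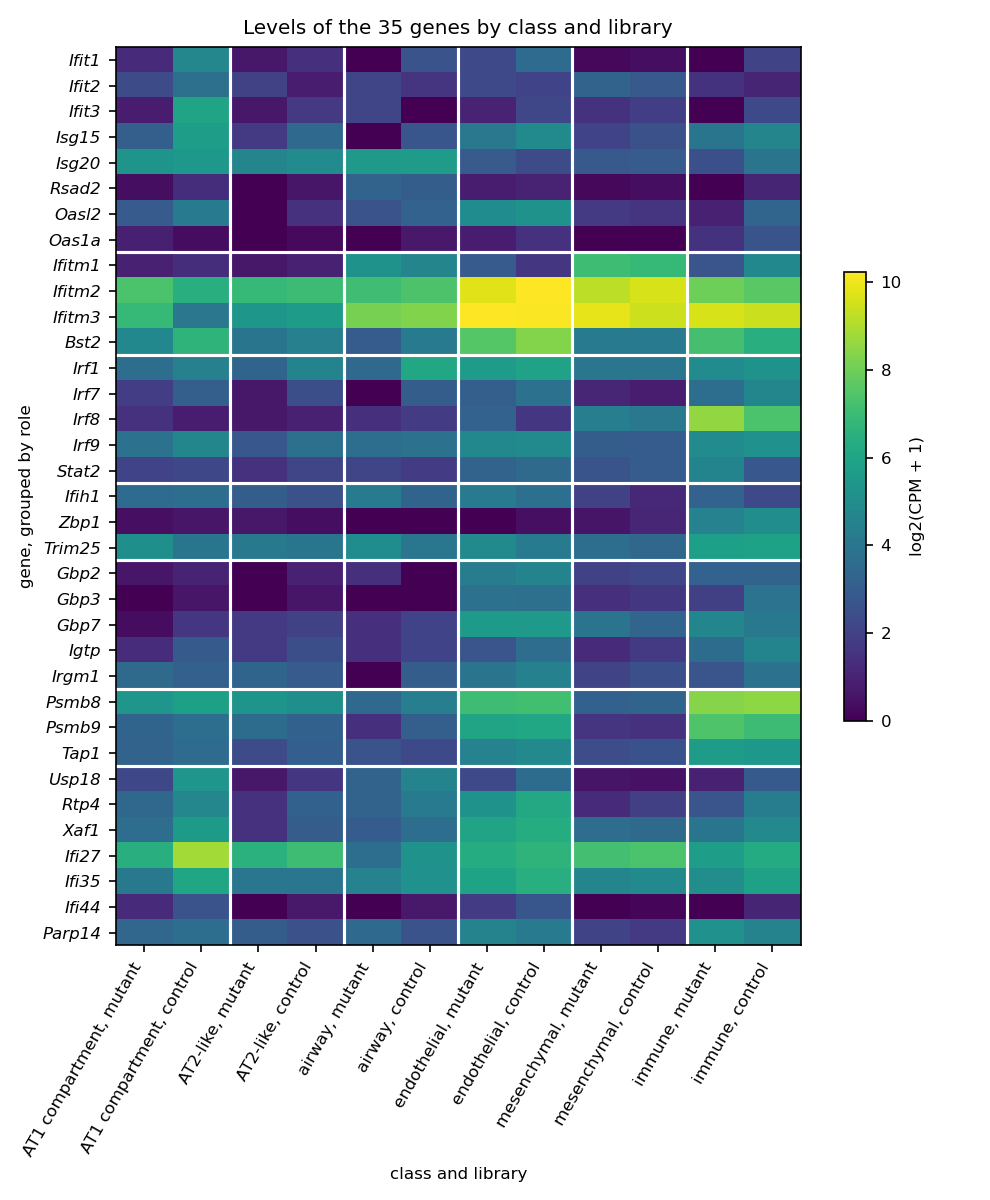
Level of each of the 35 genes, as log2(CPM + 1) in colour, in 6 classes of cells with the mutant library left of the control library. All genes share 1 colour scale, and each row is read here across classes. The rows of Ifit3, Usp18 and Ifi27 are brightest in the control AT1 compartment, and those of Ifitm3 and Ifitm2 in endothelial cells.

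Summed over all 35 genes, monocyte-like cells stood highest, with 5882 CPM in mutant and 7219 CPM in control cells. At the levels given above, Ifitm3 alone made up most of this sum in each library, and much of that of venous endothelial-like cells. The order of types is thus that of the sum and not of each member. Venous endothelial-like cells followed with 5337 CPM in mutant and 4715 CPM in control cells, arterial endothelial-like cells with 4448 CPM and 4895 CPM, and pericyte-like cells with 4091 CPM and 3504 CPM. Plvap capillary endothelial-like cells had 2939 CPM in mutant and 3706 CPM in control cells, so in the control library they stood above pericyte-like cells, with intervals that overlap. AT2-like cells stood lowest, with 432 CPM (401 to 464) in mutant and 547 CPM (532 to 562) in control cells. The intervals of venous and arterial endothelial-like cells overlapped in the control library, so their order there is not set, and those of AT2-like and club-like cells overlapped in the mutant library.

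**Figure D4:**
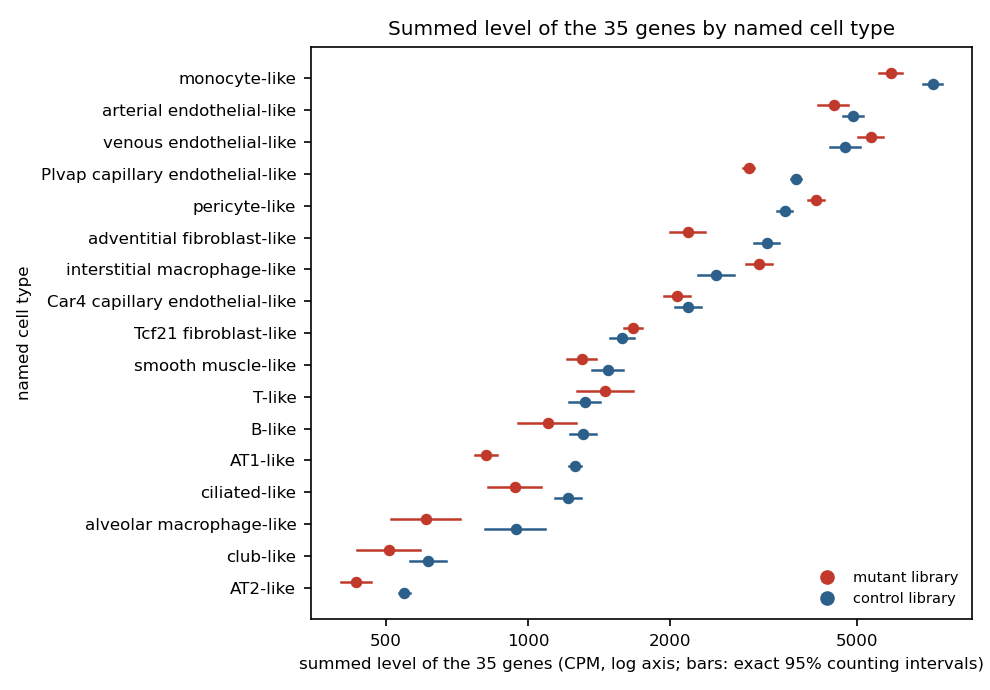
Summed level of the 35 genes (CPM, log axis) in each named cell type with at least 20 cells in both libraries, mutant in red above control in blue; bars are exact 95% counting intervals. Monocyte-like cells lie highest (5882 and 7219 CPM) and AT2-like cells lowest (432 and 547 CPM). Ifitm3 alone makes up most of the sum in monocyte-like cells.

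AT2-like cells also had lower values for several members. Most of them lay in different clusters, 182 of the 216 mutant cells in cluster 8, which held 70 control cells, and 696 and 489 of the 1255 control cells in clusters 0 and 3. Of 24 members measured in 216 mutant and 1255 control cells, 17 were lower and 8 at least 2-fold lower, where 4.72% of all measured genes were so. None was at least 2-fold higher, where 7.4% of all measured genes were so. The median log2 ratio was -0.53, against 0.18 for all genes. Isg15 had 2.35 CPM (4 UMIs) in mutant and 10.5 CPM in control cells, Irf7 0.588 CPM (1 UMI) and 4.56 CPM, Rtp4 1.76 CPM and 8.08 CPM, Xaf1 1.76 CPM and 7.05 CPM, and Irf1 8.81 CPM (4.93 to 14.5) and 23.4 CPM (20.5 to 26.7). These ratios and that of Irf9 (0.461, 0.216 to 0.877) exclude 1, while those of Ifit3 and Usp18, with 1 mutant UMI each, do not. Ifi27 had 92.2 CPM in mutant and 134 CPM in control cells (ratio 0.689, 0.580 to 0.814), and Ifitm3 had 41.7 CPM and 48.7 CPM.

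Airway cells numbered 66 in the mutant and 138 in the control library, and 15 members were measured. Of these, 12 were lower and 5 at least 2-fold lower, where 6.41% of all genes were so. None was at least 2-fold higher, where 8.09% of all genes were so. The median log2 ratio was -0.67, against 0.05 for all genes. Irf1 had 10.2 CPM (3.74 to 22.2) in mutant and 67.7 CPM (55.4 to 81.9) in control cells, 6.63-fold lower. Usp18 was 2.70-fold (1.06 to 8.83) and Ifi27 3.16-fold (1.44 to 8.21) lower. The mutant and control airway cells were 43 and 98 ciliated-like and 23 and 40 club-like cells. Irf1 had 19.8 CPM and 47.2 CPM in the ciliated-like and 3.0 CPM and 86.1 CPM in the club-like cells. Both mutant values rest on very few UMIs, so the size of the difference within each type is not set.

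Endothelial cells, 483 mutant and 589 control, had 31 measured members with a median log2 ratio of -0.29, against 0.08 for all genes. At least 2-fold lower were 4 members, where 2.16% of all genes were so, and at least 2-fold higher were 2, where 7.23% were so. Usp18 had 3.83 CPM in mutant and 11.2 CPM in control cells (2.92-fold lower, 1.44 to 6.43), Ifit1 3.83 CPM and 10.9 CPM (2.83-fold, 1.39 to 6.25) and Igtp 5.58 CPM and 11.6 CPM (2.07-fold, 1.11 to 4.03). Ifitm1 (19 mutant and 6 control UMIs) was 3.15-fold and Irf8 (24 mutant and 6 control UMIs) 3.98-fold higher, although with doublets kept the log2 ratio of Ifitm1 was -0.019. The summed immune markers of these endothelial cells were 96.5 CPM in mutant and 11.9 CPM in control cells, and their part in both results was not tested. Of the most counted members, Ifitm3 had 1188 CPM in mutant and 1158 CPM in control cells (ratio 1.03, 0.978 to 1.08). Ifitm2 had 869 CPM in mutant and 1210 CPM in control cells (ratio 0.717, 0.681 to 0.756), and Bst2 186 CPM in mutant and 328 CPM in control cells (ratio 0.569, 0.510 to 0.633).

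Mesenchymal cells, 1010 mutant and 1078 control, showed the smallest differences. Of 28 measured members, 1 (Rtp4) was at least 2-fold lower, where 2.47% of all genes were so, and 1 (Ifih1) at least 2-fold higher, where 6.88% were so, and both intervals include 1. The median log2 ratio was -0.08, against 0.04 for all genes. Ifi27 had 146 CPM in mutant and 161 CPM in control cells, Ifitm3 940 CPM and 712 CPM, and Irf1 15.04 CPM and 15.1 CPM.

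Immune cells, 170 mutant and 328 control, had 26 measured members with a median log2 ratio of -0.27, against 0.09 for all genes. At least 2-fold lower were 7 members, where 6.04% of all genes were so, and at least 2-fold higher were 2, where 8.52% were so. Gbp3 had 2.79 CPM (3 UMIs) in mutant and 14.0 CPM in control cells (5.02-fold lower, 1.54 to 25.9), Ifitm1 5.59 CPM and 26.4 CPM (4.73-fold), Rtp4 5.59 CPM and 19.4 CPM (3.48-fold) and Isg20 4.66 CPM and 14.6 CPM (3.13-fold). Irf8 had 384 CPM in mutant and 161 CPM in control cells (2.39-fold higher, 2.05 to 2.78), and Stat2 23.3 CPM and 5.94 CPM (3.92-fold, 1.86 to 8.83). The libraries differed in which immune cells they held, for example 30 mutant and 140 control B-like cells. Within monocyte-like cells (34 mutant and 44 control) Irf7 had 19.7 CPM in mutant and 92.3 CPM in control cells and Irf8 had 128 CPM in mutant and 188 CPM in control cells (ratio 0.680, 0.406 to 1.12). In interstitial macrophage-like cells, 41 mutant and 20 control, the ratio of Irf8 was 2.68 (2.10 to 3.46). The part of cell composition in the ratio of the whole class was not tested.

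**Figure D5:**
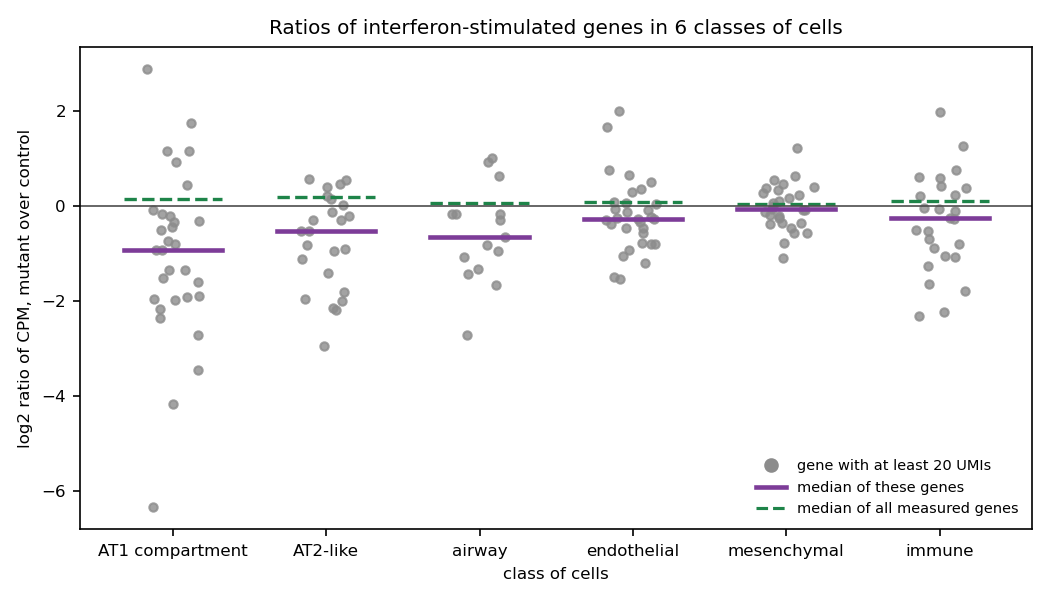
Log2 ratios of CPM, mutant over control, of the members with at least 20 UMIs in each of 6 classes; the solid line is the median of these genes and the dashed line that of all measured genes. The gap between the lines is widest in the AT1 compartment (-0.93 and 0.15) and narrowest in mesenchymal cells (-0.08 and 0.04).

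Interferon itself was hardly seen. Of 21 ligand genes none was measured in any class. Ifnk, an epithelial type I interferon gene, had 15 UMIs in the mutant and 1 UMI in the control compartment, and Ifng, the type II gene, had 1 UMI in mutant and 6 UMIs in control immune cells. The compartment's receptor genes differed by less than most effectors. Ifnar1 had 26.3 CPM in mutant and 30.7 CPM in control cells (ratio 0.856, 0.706 to 1.05), Ifnar2 30.6 CPM and 41.0 CPM (0.746), Ifngr1 77.8 CPM and 54.5 CPM (1.43), Ifngr2 72.4 CPM and 110 CPM (0.657) and the type III receptor gene Ifnlr1 10.5 CPM and 13.7 CPM (0.765, 0.571 to 1.04). Its partner Il10rb had 56.0 CPM in mutant and 121 CPM in control cells, 2.15-fold lower. Of the 15 receptor and JAK-STAT genes 4 were at least 2-fold lower and 1 at least 2-fold higher in the compartment, where 12.5% and 21.7% of all measured genes were so, with a median log2 ratio of -0.39.

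Among further interferon-stimulated genes the share at least 2-fold higher was close to that of all genes. Their share at least 2-fold lower was above that of all genes, in a list also chosen with earlier results of these data known. Of 71 further interferon-stimulated genes 47 were measured, 14 of them at least 2-fold lower, where 12.5% of all measured genes were so, and 11 at least 2-fold higher, where 21.7% were so, with a median log2 ratio of -0.47. Ifit3b was 55.7-fold and Ifit1bl2 14.4-fold lower. Ly6e, the gene of a membrane-anchored surface protein, had 1104 CPM in mutant and 20.1 CPM in control cells, 54.8-fold higher (43.9 to 69.4), and the galectin gene Lgals9 (88.4 CPM in mutant and 5.94 CPM in control cells) and the surface antigen gene Ly6a (51.6 CPM in mutant and 4.13 CPM in control cells) were also higher. Samhd1, a dNTP hydrolase gene named after its values were seen, had 26.8 CPM in mutant and 317 CPM in control cells. Of 14 measured sensing genes 1 was at least 2-fold lower and 5 at least 2-fold higher, beside the same shares of all genes, and 1 of the 5 (Mb21d1) had 72 mutant and 0 control UMIs, so that its ratio is set by the floor. Named among them are Tmem173, the STING gene, with 182 UMIs in mutant and 3 UMIs in control cells (ratio 7.501, 2.53 to 36.7), Ikbke with a ratio of 4.92 (2.07 to 15.3) and Irf5 with 40 mutant UMIs and 1 control UMI (ratio 4.95, 0.838 to 200.2), whose interval includes 1. The chemokine gene Cxcl10, named here for the compartment after its values were seen, had 74 mutant UMIs and 1 control UMI there (ratio 9.15, 1.59 to 366).

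The same pathway lists held few other genes with a log2 ratio of size 2 or more outside the compartment, and these lay on both sides. Cxcl10 was 13.1-fold lower in mesenchymal cells (5 mutant and 76 control UMIs) and 6.08-fold lower in immune cells (8 mutant and 84 control UMIs), opposite in sign to the compartment. In immune cells Helz2 was 4.06-fold lower, while the RNA sensor gene Tlr3 had 27.9 CPM in mutant and 3.24 CPM in control cells (ratio 8.63, 3.53 to 25.4) and Ifi205 64.3 CPM in mutant and 10.8 CPM in control cells (ratio 5.95, 3.58 to 10.3). In endothelial cells Slfn2 was higher (ratio 4.31, 1.74 to 12.8, on 26 mutant and 6 control UMIs). Of the feedback inhibitors of JAK-STAT signalling, Socs3 had 15.3 CPM in mutant and 74.1 CPM in control airway cells (ratio 0.207, 0.0922 to 0.406), and Socs1 had 1 mutant UMI and 40 control UMIs in AT2-like cells (ratio 0.142, 0.0035 to 0.836).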

How the data were processed

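Groups came from the genotype labels. The authors deposited 1 count matrix per library, holding unnormalized UMI counts. Per the submitters' processing notes, the tools were Cell Ranger and Seurat and the build mm10. Tool versions and the annotation: not given in the sources used here. Gene positions are GENCODE M21 (GRCm38).

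Barcodes with at least 500 genes and at most 10% mitochondrial counts were kept. The highest doublet scores, at 0.8% per 1000 cells, marked 156 mutant and 137 control cells, which were removed, as were 64 mutant and 52 control cells of mixed clusters. Cells were clustered with scanpy 1.11.5 and leidenalg 0.10.2 (2000 variable genes without the members and pathway genes, 30 components, 20 neighbours, resolution 1). Clusters were named from marker lists, and the naming thresholds were chosen after seeing the data. Counts were summed per class and library and scaled to 1000000. Against a library at 0 UMIs, ratios used a floor of 3 counts summed over the class. No cell had under 1500 UMIs for thinning. Code was tested on simulated counts. Ratios used scipy 1.17.1.

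Members and lists were chosen with earlier results of these data known. All 35 members may be named; those given in full are past 2-fold with an interval that excludes 1, at most 8 a class by size, and the most counted of each role. Other pathway genes named have a log2 ratio of size 2 or more, at most 5 a list and class, plus the receptors. A result on 1 further pathway gene is not reported here.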

Additional observations from a re-analysis of the deposited data

Results flagged for a closer look

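Ifitm1 had opposite signs in endothelial and immune cells. Its log2 ratio, mutant over control, was 1.66 in endothelial cells (19 mutant and 6 control UMIs) and -2.24 in immune cells (6 mutant and 49 control UMIs), a gap of 3.90. With 1 library per genotype this difference was not tested. The endothelial ratio was -0.019 with doublets kept.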

How the results depend on the processing

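Of the list medians and 2-fold counts under the alternatives, 91 stayed within their limits and 9 moved. Of single gene ratios 518 stayed, 55 moved and 8 changed sign from a ratio past 2-fold. Most of these came from other choices of cells: 17 gene ratios moved in AT1-like clusters alone, 19 over all epithelial cells and 12 in cluster 9. The number of members at least 2-fold higher in the AT1 compartment, 4 in the report, was 2 with a minimum of 100 UMIs, 2 over all epithelial cells, 2 without the cell with the most UMIs of each gene and 0 in AT1-like clusters alone. Of all measured genes 21.7% in the compartment and 6.09% in AT1-like clusters alone were at least 2-fold higher. The number at least 2-fold lower, 14 of 31 measured members in the report, was 7 of 26 in AT1-like clusters alone, where 7.9% of all measured genes were so. These clusters compare mostly mutant cells of cluster 9 with control cells of cluster 2. In clusters with at least 20 cells of each library (cluster 9, added after seeing the data) the median was -0.14, with 2 members lower and 2 higher. The mesenchymal median was -0.26 with named types weighted equally, also added later, as was leaving out single cells. Over its alternatives the compartment median was otherwise between -1.08 and -0.48.

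Sign changes were counted for log2 ratios past 2-fold in the report whose interval excludes 1. They were those of Ifitm1 in endothelial cells (-0.019 with doublets kept), Ifit2 in the compartment (0.060 over all epithelial cells, 0.072 in AT1-like clusters alone, 1.05 in cluster 9) and, in cluster 9, Ifit3 (0.46, with under 20 UMIs there), Xaf1 (0.46), Ifi35 (0.65) and Ifitm3 (-0.40). Sign changes of other ratios are counted among those that moved or stayed. The cause was not tested. No paired analysis was possible because each genotype has 1 library. Depth limits Ifit1, Ifit3 and Usp18 outside the compartment, where they had few UMIs.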
